A study of Mus musculus with 24 samples.

Results

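The genes described here make, sense and destroy cyclic AMP and cyclic GMP in the mouse adrenal gland. They were chosen by name: phosphodiesterases (Pde and a digit), adenylyl cyclases (Adcy and a digit), protein kinase A catalytic and regulatory subunits (Prkac, Prkar), protein kinase G (Prkg1, Prkg2), guanylyl cyclases (Gucy) and natriuretic peptide receptors (Npr1 to Npr3). On the arrays 56 of 36413 gene names met this rule, and 50 of them stood among the 26372 genes with a probe well above background on at least 3 of 24 arrays. The other 6 (Gucy2d, Gucy2f, Gucy2g, Pde11a, Pde1c and Pde6b) had no such probe. Of the 50, 42 were well above background on all 24 arrays.

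The study measured adrenal RNA of C57BL/6 mice on one-colour arrays, with 3 arrays in each of 8 groups. Females without Kcnk3, a background potassium channel gene (Kcnk3 null), and wild-type (WT) females were either injected with testosterone or left in the basal state that the labels call sham. Kcnk3 null males and WT males were either castrated or sham. The null allele, as the design gives it, is not limited to the adrenal cortex, and ages, doses and intervals are not given in the sources used here. Testosterone females and sham males are called the high androgen groups below, and sham females and castrated males the low androgen groups. The labels do not say that the 3 RNA samples of a group came from separate animals, so p-values measure the spread between these samples.

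In the adrenal cortex, ACTH raises cyclic AMP by activating adenylyl cyclases, and cyclic AMP frees the catalytic subunits of protein kinase A from their regulatory subunits, which drives steroid production. Cyclic GMP is made by soluble guanylyl cyclase, the receptor for nitric oxide, and by the natriuretic peptide receptors Npr1 and Npr2; natriuretic peptides restrain aldosterone secretion. Phosphodiesterases hydrolyse both messengers and differ in which they prefer, so the set a cell expresses shapes how long each signal lasts.

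Several arrays went against their labels or stood apart. Kcnk3 signal in null arrays ranged from 5.63% to 69.0% of the mean of WT sham arrays of the same sex, and in WT arrays from 66.5% to 118%, so 1 null array lay within the WT range. Where the Kcnk3 probe lies relative to the deleted part is not given in the sources used here, so this signal does not settle the labels. On 9 arrays a sex-linked signal of at least 10% went against the labelled sex: in 4 arrays labelled male the female transcript Xist reached 17.4% to 58.0% of the female null sham mean, and in 5 arrays labelled female the Y-linked genes Ddx3y and Eif2s3y reached 19.2% to 45.5% of the male WT sham mean. They carried the signal of their labelled sex as well. On the same scales the Y-linked signal was 37.3% to 79.8% in these 4 male arrays, and Xist 39% to 167% in these 5 female arrays. Below, against their labels refers to the opposing signal and not to a loss of the labelled one. The 9 arrays were male null sham 1 and 2, male null castrated 1 and 2, female WT sham 2 and 3, and all 3 female WT testosterone arrays. All the male ones are thus null and all the female ones WT, so within each sex this signal goes with genotype. The third arrays of null sham and null castrated males, below that limit, had Xist at 6.08% and 4.15%, against 0.56% to 1.11% in WT males, and they are the null male arrays that remain when the 9 are left out. Results are given below with these arrays and without them. Without them 3 groups kept a single array, assumed to vary like the other groups, and averages over pairs of groups could use 3 pairs instead of 4. Albumin, a liver transcript, was far above the others on 2 arrays, male WT sham 3 and female null testosterone 1. The third female WT sham and female WT testosterone arrays, alone on slide 4, had RNA integrity numbers of 3, against 5 to 9 on the others. Adrenal cortex markers were present on every array.

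Signals are given as multiples of the array's 75th percentile, and a difference is a difference of mean log2 signal ± its standard error. A gene was called in a comparison when limma's p-value, adjusted over all 26372 genes, was under 0.05. Over 14 comparisons 10 members were called at least once, in 18 combinations of member and comparison, while 7.36% of all genes were called at least once. The comparisons share arrays, so neither figure is a test. Of the 23 phosphodiesterase names 7 were called, of the 4 protein kinase A regulatory subunits 2, and of the 3 natriuretic peptide receptors 1. With the main settings no call fell on the 10 adenylyl cyclases, the 6 guanylyl cyclases, the 2 protein kinase A catalytic subunits or the 2 protein kinase G genes. Under alternative settings some of them were called. Adcy7 was higher in the high androgen groups under several, such as quantile normalisation (0.36, adjusted p = 0.0321) and the slide as a block (0.36, 0.0383). With array weights Adcy6 was higher in null than in WT castrated males (0.60, 0.00533). Prkg2 was then lower in female than in male null sham (-1.19, 0.00212).

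Pde7a and Pde5a gave the clearest androgen and genotype differences, so the first 30 bases of their array probes are shown. The main Pde7a probe lies on the minus strand of chr3:19126220-19126279 and the second Pde7a probe on the minus strand of chr3:19136449-19136508, and the files tie the 2 probes to different transcripts of the gene. The Pde5a probe lies on the plus strand of chr3:122558949-122559008. Coordinates refer to the mm9 build that the files name and to the whole 60-base probe, and whether a probe lies in a coding exon or a UTR was not analysed here.
Pde7a, main probe: gtcttatgtagagcaagcacaactgtaacc
Pde7a, second probe: atttagtcttcatggattgattgagtactt
Pde5a, single probe: gccctccaccaagagaaatgttttacttga

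Pde7a, a phosphodiesterase specific for cyclic AMP, was higher in low androgen adrenals of both sexes. Its signal was 0.919, 1.08 and 1.19 in female null testosterone arrays and 1.23, 1.33 and 1.51 in female WT testosterone arrays, against 1.72, 1.85 and 1.95 in female null sham and 2.20, 2.82 and 3.13 in female WT sham arrays. In males it was 1.86, 1.88 and 3.05 in null castrated arrays and 2.15, 2.59 and 2.65 in WT castrated arrays, against 0.960, 1.16 and 1.41 in null sham and 0.693, 0.700 and 0.719 in WT sham arrays. Every low androgen array thus lay above every high androgen array, the highest high androgen array at 1.51 and the lowest low androgen array at 1.72. The lowest 3 of the 24 arrays were those of WT sham males.

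**Figure D1:**
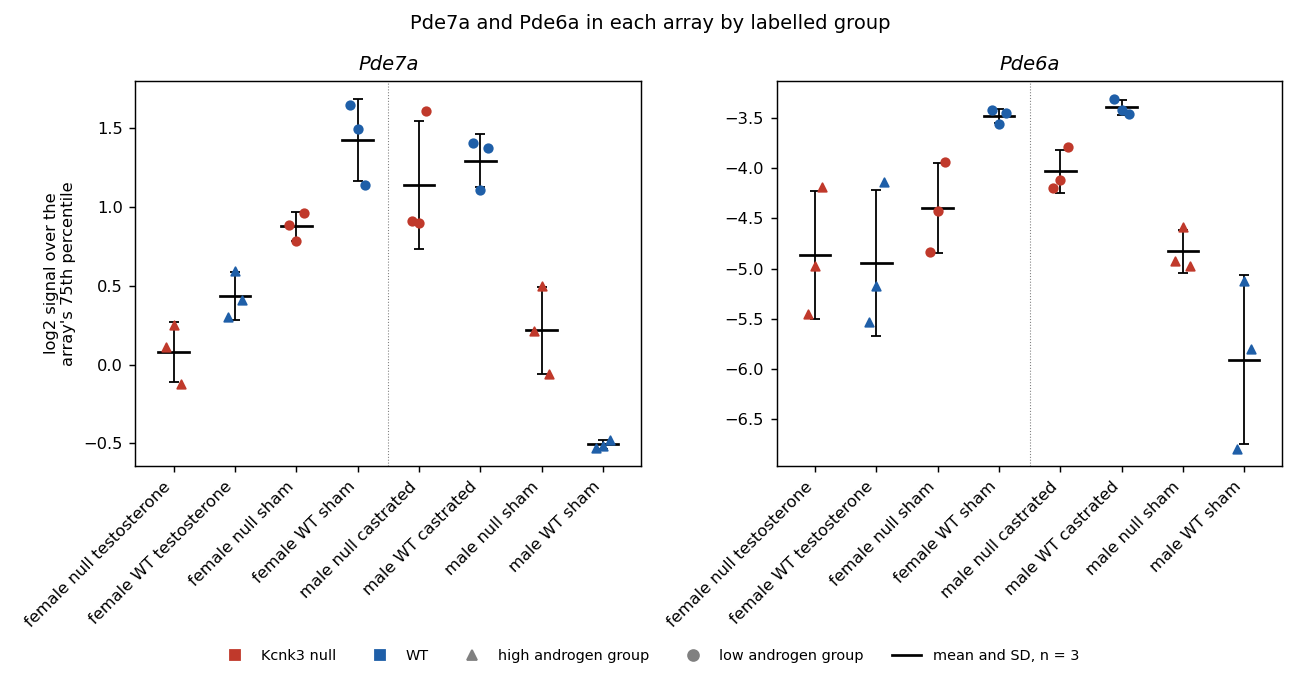
Log2 signal of Pde7a (left) and Pde6a (right) over the array's 75th percentile, by labelled group; points are arrays (red Kcnk3 null, blue WT, triangles high androgen, circles low androgen), bars the mean and SD of 3 arrays. Every circle lies above every triangle for Pde7a, while for Pde6a the circles and triangles overlap and no male WT sham array was well above background.

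Castration raised Pde7a 3.48-fold in WT males, a log2 difference of 1.80 ± 0.19 with adjusted p = 7.64e-05, in a comparison that called 0.705% of all genes. In null males the difference was 0.92 ± 0.19, adjusted p = 0.0184, where 1.28% of genes were called. The difference between these responses, null minus WT, was -0.88 ± 0.27 with adjusted p = 0.513, so it was not called, although with array weights it was (-1.11, adjusted p = 0.00765). Testosterone lowered Pde7a in WT females by 1.99-fold (-0.99 ± 0.19, adjusted p = 0.0477), where 0.14% of genes were called. In null females the testosterone difference was -0.80 ± 0.19 with adjusted p = 0.113. Female WT sham adrenals had 3.82 times the Pde7a signal of male WT sham adrenals (1.93 ± 0.19, adjusted p = 2.23e-05; 2.61% of genes called), and in null sham adrenals female minus male was 0.66 ± 0.19, adjusted p = 0.124. Averaged over the 4 pairs, high minus low androgen was -1.13 ± 0.10, adjusted p = 2.59e-06, in a comparison that called 3.55% of genes.

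The calls of Pde7a for castration in WT males, for sex in WT sham and for the androgen average held under every alternative processing tried. None of the 9 arrays against their labels is a WT male array. Leaving them out therefore could not change the castration difference in WT males (1.80), only the spread it was set against. The sex difference in WT sham was then 2.16, with a single female WT sham array left. The androgen average over 3 pairs was -1.42. The castration call in null males was lost without those arrays (1.67, adjusted p = 0.0577), and also without null sham replicate 1 (0.92, 0.0833), null sham replicate 3 (0.78, 0.12) or null castrated replicate 3 (0.68, 0.116). Testosterone in WT females was called in 14 of 37 alternatives, with a difference between -1.14 and -0.88 in all of them, and it has no value without the 9 arrays. Within slides, castrated minus sham was 0.39 to 1.67 in null males and 1.62 to 1.93 in WT males.

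The second Pde7a probe gave the same directions. Its 12 high androgen arrays ran from 0.0283 to 0.115 (median 0.0642) and its 12 low androgen arrays from 0.0888 to 0.189 (median 0.126), so the ranges overlapped. High minus low androgen was -1.17 ± 0.18 on this probe, adjusted p = 0.000788. Female minus male in WT sham was 1.71 (adjusted p = 0.0161) and castrated minus sham in null males 1.55 (0.0474), while castration in WT males (1.31, 0.17) and testosterone in WT females (-0.83, 0.744) were not called.

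Pde6a, the alpha catalytic subunit of the cyclic GMP phosphodiesterase of rod photoreceptors, was also lower with high androgen, at signals far below the 75th percentile. Male WT castrated arrays gave 0.0910, 0.0932 and 0.101 and male WT sham arrays 0.00902, 0.0180 and 0.0286, none of the sham arrays being well above background. The castrated signal was at least 4.06-fold higher on the processed, background-subtracted signal, with adjusted p = 0.00232. Female WT sham arrays, at 0.0847, 0.0911 and 0.0933, were at least 3.83-fold above male WT sham arrays (adjusted p = 0.00154). These WT groups did not overlap. The size depended on the background treatment: castrated minus sham was 0.77 on the log2 scale after normexp and quantile normalisation (adjusted p = 0.000297) and 1.08 in the deposited value table (0.000161), and female minus male was 0.73 (0.000219) and 1.00 (0.000151), so the folds above hold for the main processing alone.

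Null and testosterone groups gave Pde6a signals in between. Female null testosterone arrays read 0.0229, 0.0319 and 0.0549, against 0.0350, 0.0466 and 0.0652 in female null sham arrays. Female WT testosterone arrays read 0.0216, 0.0278 and 0.0569, all below every female WT sham array (adjusted p = 0.191). Male null castrated arrays read 0.0546, 0.0576 and 0.0724, against 0.0318, 0.0329 and 0.0416 in male null sham arrays, groups that did not overlap but were not called (adjusted p = 0.513). Pde6a was also called lower in the average over high minus low androgen pairs (adjusted p = 4e-04), by -0.43 after normexp and quantile normalisation and -0.60 in the deposited value table. Without the 9 arrays against their labels its sex call and its androgen average did not hold. Its castration call in WT males did, but none of the 9 is a WT male array, so that difference could not change.

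Markers of the X-zone, a transient inner layer of the mouse adrenal cortex that androgen removes, moved with Pde7a and Pde6a in some comparisons. Both X-zone genes measured, Akr1c18 and Pik3c2g, were called higher in castrated than sham WT males and in female than male WT sham, and lower in the androgen average. Their summed signal was 0.0901 to 0.119 in female null testosterone arrays and 57.1 to 109 in female WT testosterone arrays, against 7.26 to 104 in female null sham and 134 to 372 in female WT sham arrays. In males the sum was 161 to 248 in null castrated and 228 to 331 in WT castrated arrays, against 0.0831 to 129 in null sham and 0.0695 to 0.109 in WT sham arrays. In testosterone females Pde7a ran from 0.919 to 1.19 in null and from 1.23 to 1.51 in WT arrays, which did not overlap, the lower signals going with the lower sums (-0.36 ± 0.19, adjusted p = 0.649). In male null sham the arrays with X-zone sums of 91.6, 129 and 0.0831 had Pde7a signals of 1.16, 1.41 and 0.960. Female null sham arrays with sums of 104, 65.3 and 7.26 had Pde7a signals of 1.85, 1.72 and 1.95. Female WT testosterone arrays with sums of 96.1, 57.1 and 109 had Pde7a signals of 1.23, 1.51 and 1.33. In both of these female groups the lowest sum went with the highest Pde7a signal. Pde6a ran from 0.0229 to 0.0549 in null and from 0.0216 to 0.0569 in WT testosterone females, whose X-zone sums lay far apart. Neither X-zone gene was called for castration in null males or for testosterone in WT females, where Pde7a was. Akr1c18 was called lower with testosterone in null females (-8.58, adjusted p = 0.0421), where neither Pde7a nor Pde6a was. What part the X-zone has in these differences was not tested, and in whole glands fewer cells of a type and less RNA per cell cannot be told apart. Other markers moved in the same comparisons. In the androgen average 2 of 5 mast cell markers were lower, Cma1 by -1.57 and Cpa3 by -0.68, and 1 of 6 cortex markers, Nr5a1 by -0.62, while 2 of 4 zona glomerulosa markers were higher, Vsnl1 by 1.20 and Agtr1b by 0.71. Between female and male WT sham, Nr5a1 (1.62) and Star (0.84) were higher and the pericyte marker Rgs5 (-0.78) lower. After castration of null males, 3 of 5 mast cell markers and Cyp11b2 (2.16) were higher, and Vsnl1 (-3.52) and Agtr1b (-2.48) lower.

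Among the other members, 5 were called in the high minus low androgen average with smaller differences, which makes 4 members higher (1.46% of all genes were) and 3 lower (2.09% of all genes) in the high androgen groups. The median difference of all 50 members was 0.04, against -0.01 over all genes. Pde4a, specific for cyclic AMP and inhibited by rolipram, ranged from 2.45 to 3.55 (median 3.05) in the 12 high androgen arrays and from 1.75 to 3.20 (median 2.06) in the 12 low androgen arrays. Its difference was 0.44 ± 0.09 with adjusted p = 0.00823, and a second Pde4a probe gave 0.43 with adjusted p = 0.0409. The low androgen range reached up to the male null castrated arrays at 2.97 and 3.20, the other low androgen arrays lying at 2.64 or below.

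Pde8a, a high-affinity phosphodiesterase for cyclic AMP, ran from 0.0462 to 0.0850 (median 0.0709) in high androgen arrays and from 0.0334 to 0.0642 (median 0.0494) in low androgen arrays, a difference of 0.46 ± 0.11 (adjusted p = 0.0274). Pde1b, a calcium and calmodulin-dependent enzyme that takes both messengers, ran from 0.984 to 1.88 (median 1.58) and from 0.950 to 1.43 (median 1.16) in the same order of groups, a difference of 0.31 ± 0.08 (adjusted p = 0.0308). Both genes were brightest in a sham male group, Pde8a in null and Pde1b in WT males. High and low androgen arrays overlapped for both genes. Pde1b gave 0.999, 1.15 and 1.24 in null castrated and 1.04, 1.27 and 1.33 in WT castrated arrays. Neither group overlapped its sham males, where 22.3% and 17% of all genes did not overlap. Castration was not called for Pde1b with the main settings. With the slide as a block it was, at -0.56 in null (adjusted p = 0.0186) and -0.59 in WT males (0.0188). Its testosterone and sham female arrays overlapped in both genotypes.

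Prkar1a and Prkar2b, regulatory subunits of the type I and type II forms of protein kinase A, were called in opposite directions. Prkar1a ran from 14.9 to 23.3 (median 18.8) in high androgen arrays and from 19.3 to 29.3 (median 23.6) in low androgen arrays, a difference of -0.33 ± 0.07 (adjusted p = 0.00824). Prkar2b ran from 57.6 to 108 (median 66.7) in high androgen arrays and from 33.6 to 74.6 (median 56.3) in low androgen arrays, a difference of 0.40 ± 0.10 (adjusted p = 0.0327). A second Prkar1a probe disagreed with the first, at -0.11 with adjusted p = 0.798. Of the other Prkar2b probes, one gave 0.49 (adjusted p = 0.0258) and one 0.39 (adjusted p = 0.121).

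The averages of Pde4a and Prkar1a were called under all alternatives but one, the 3 pairs left without the 9 arrays against their labels, where Pde4a differed by 0.43 (adjusted p = 0.211) and Prkar1a by -0.36 (0.0988). In those 3 pairs Pde8a, Pde1b and Prkar2b differed by 0.63, 0.43 and 0.33, none called. Leaving out single arrays kept the call of Pde8a in 15 of 24 cases, that of Pde1b in 13 and that of Prkar2b in 11. The processing also ended these calls: Pde8a missed the threshold after quantile normalisation (0.43, adjusted p = 0.175), after normexp with quantiles (0.20, 0.144), in the deposited table (0.24, 0.191), with trended robust variance (0.46, 0.0724) and without slide 4 (0.45, 0.0559). Pde1b missed it after normexp with quantiles (0.26, 0.078), in the deposited table (0.26, 0.0909), with no probe filter (0.31, 0.0594) and without the albumin arrays (0.30, 0.0697). Prkar2b missed it with no probe filter (0.40, 0.0553) and without slide 4 (0.35, 0.0789).

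**Figure D2:**
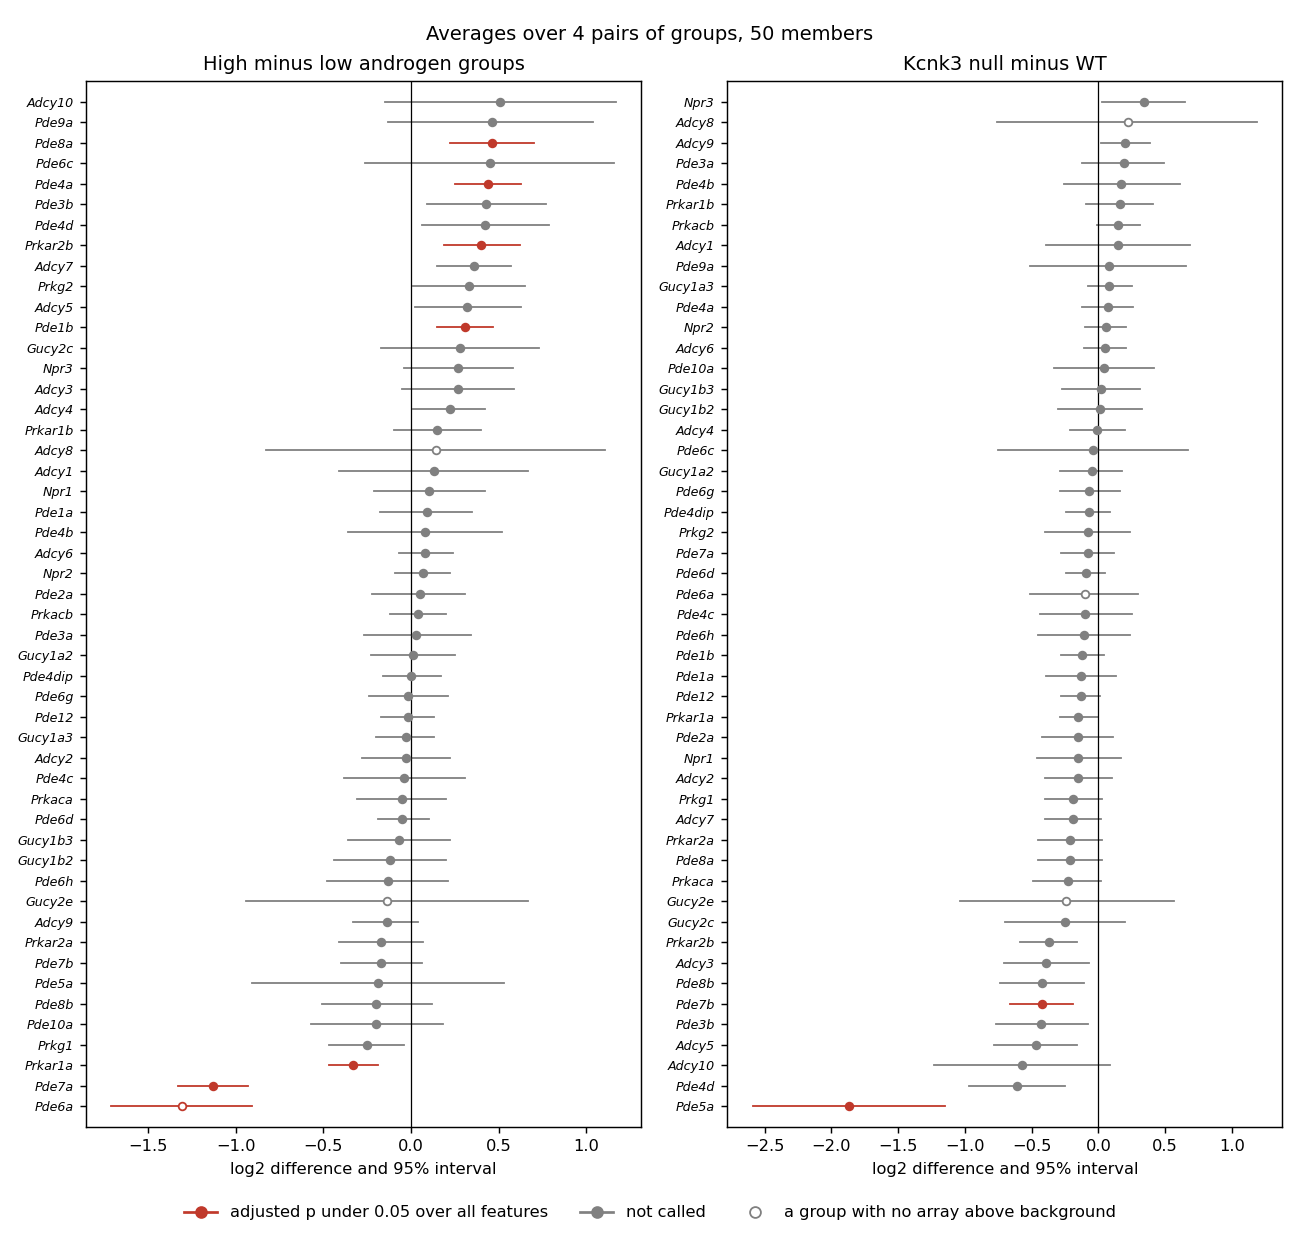
Log2 difference of each of the 50 members with its 95% interval, averaged over 4 pairs of groups: high minus low androgen (left) and Kcnk3 null minus WT (right); red marks adjusted p under 0.05 over all genes, and hollow points are members with a group in which no array was above background, whose size is no measured fold. Pde7a at -1.13 and Pde5a at -1.87 lie farthest from 0 among the filled points of their panels.

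Female and male WT sham adrenals differed in 5 members, 10% of the 50, against 2.61% of all genes: Pde7a, Pde6a and Prkar1a were higher in females, as were 1.57% of genes, and Npr3 and Pde1b lower, as were 1.04% of genes. Npr3, the clearance receptor that removes natriuretic peptides and has no cyclase domain, gave 0.643, 0.677 and 0.678 in female WT sham arrays and 1.53, 1.70 and 1.78 in male WT sham arrays. The female signal was lower by 2.51-fold (-1.33 ± 0.29, adjusted p = 0.0182). The groups did not overlap, and the female arrays differed among themselves by very little. In null sham adrenals Npr3 gave 0.692, 1.64 and 2.26 in females and 1.5, 1.66 and 2.00 in males, which overlapped (adjusted p = 0.826). Null minus WT in sham females was 1.04 ± 0.29 for Npr3, adjusted p = 0.139, with 1 null array, replicate 3 at 0.692, near the WT arrays. Without that array the difference was 1.53 with adjusted p = 0.00129, and the testosterone by genotype difference, -1.34 with it (adjusted p = 0.567), was -1.83 (adjusted p = 0.0066).

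Pde1b gave 0.950, 1.09 and 1.43 in female WT sham arrays and 1.73, 1.84 and 1.88 in male WT sham arrays (-0.67 ± 0.15, adjusted p = 0.0242). In null sham adrenals it gave 1.05, 1.16 and 1.24 in females and 1.62, 1.64 and 1.73 in males, which also did not overlap but missed the threshold (-0.54 ± 0.15, adjusted p = 0.123). Prkar1a gave 25.6, 26.0 and 29.3 in female WT sham arrays and 17.4, 18.6 and 19.0 in male WT sham arrays (0.55 ± 0.14, adjusted p = 0.0338). Its second probe gave 0.00 for the same comparison (adjusted p = 0.999), so the Prkar1a sex difference was seen on 1 of 2 probes.

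Each of these smaller sex differences was lost when some single arrays were left out. Npr3 lost its call without male WT sham replicate 1 (-1.31, adjusted p = 0.0726), male WT sham replicate 2 (-1.28, 0.0793) or female WT sham replicate 1 (-1.30, 0.074). Pde1b also lost its call after normexp with quantiles (-0.57, adjusted p = 0.0568), in the deposited table (-0.59, 0.0614) and without the albumin arrays (-0.64, 0.0717). Prkar1a lost its call with no probe filter (adjusted p = 0.0689) and without the albumin arrays (0.0706). Pde1b and Prkar1a each lost theirs without female WT sham replicate 1 or 2 or any 1 of the male WT sham arrays, with adjusted p up to 0.133 and 0.143. Without the 9 arrays against their labels, which leaves 1 female WT sham array, Npr3 differed by -1.38 (0.218), Prkar1a by 0.67 (0.0717) and Pde1b by -0.93 (0.0414).

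No member was called between females and males in null sham adrenals, where 1.02% of genes were; 7 members had an unadjusted p under 0.05, as did 10.5% of all genes. That result depended on the fit: with the slide as a block Pde1b (-0.54, adjusted p = 0.0253) and Pde7b (0.77, 0.0493) were called, and with array weights 6 members. The genes called in total also moved, from 268 with the main settings to as many as 2136 over the alternatives. Testosterone in null females called no member either, against 0.273% of genes, with 6 members and 6.61% of all genes at an unadjusted p under 0.05. The castration by genotype and testosterone by genotype differences called no member, against 0.0948% and 0.114% of genes, with 6 members at an unadjusted p under 0.05 in each, and 4.35% and 3.84% of all genes.

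Between Kcnk3 null and WT adrenals no member was called in any single pair of groups by limma. The pairs called 0.0303% of genes in sham males, 0.774% in castrated males, 0.664% in sham females and 0.0417% in testosterone females, and the members at an unadjusted p under 0.05 numbered 4, 5, 9 and 13 of 50 in that order, where 3.75%, 7.54%, 10.4% and 8.77% of all genes were. With array weights 3, 4, 1 and 1 members were called, and in castrated males other settings called Pde8b. The shares above belong to the main settings. Over the alternatives the genes called in total rose as well, up to 591, 954, 367 and 128 of 26372 in the same order. Averaged over the 4 pairs, 2 members were lower in null adrenals, Pde5a and Pde7b, which is 4% of the members, against 2.85% of all genes called and 1.36% called lower. The median over the members was -0.10 in this average, against -0.02 over all genes.

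Pde5a, the phosphodiesterase specific for cyclic GMP that sildenafil inhibits, had the widest range of group means of all members, 3.11 on the log2 scale. It gave 0.263, 0.367 and 0.454 in null testosterone females, against 0.710, 1.36 and 2.08 in WT testosterone females. In sham females it gave 0.374, 1.27 and 1.49 in null and 1.79, 2.10 and 4.73 in WT arrays. In castrated males it gave 0.131, 0.692 and 0.819 in null and 2.24, 2.28 and 2.40 in WT arrays. In sham males it gave 0.440, 0.889 and 2.43 in null and 2.65, 2.67 and 3.97 in WT arrays. The null arrays lay below the WT arrays in all 4 pairs, and the spread within the null groups was wide.

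The average genotype difference of Pde5a was -1.87 ± 0.34, 3.65-fold lower in null, with adjusted p = 0.00558, and the 4 pairs gave -1.84 in testosterone females, -1.55 in sham females, -2.46 in castrated males and -1.63 in sham males. Within the slides that held all groups it was -1.46 and -2.30. It was called under 37 of 38 alternatives, including every omission of a single array. The exception was the average of the 3 pairs left without the 9 arrays against their labels, where it was -0.94 with adjusted p = 0.605. The null sham male array that stays in that average is the one at 2.43, close to the WT arrays.

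**Figure D3:**
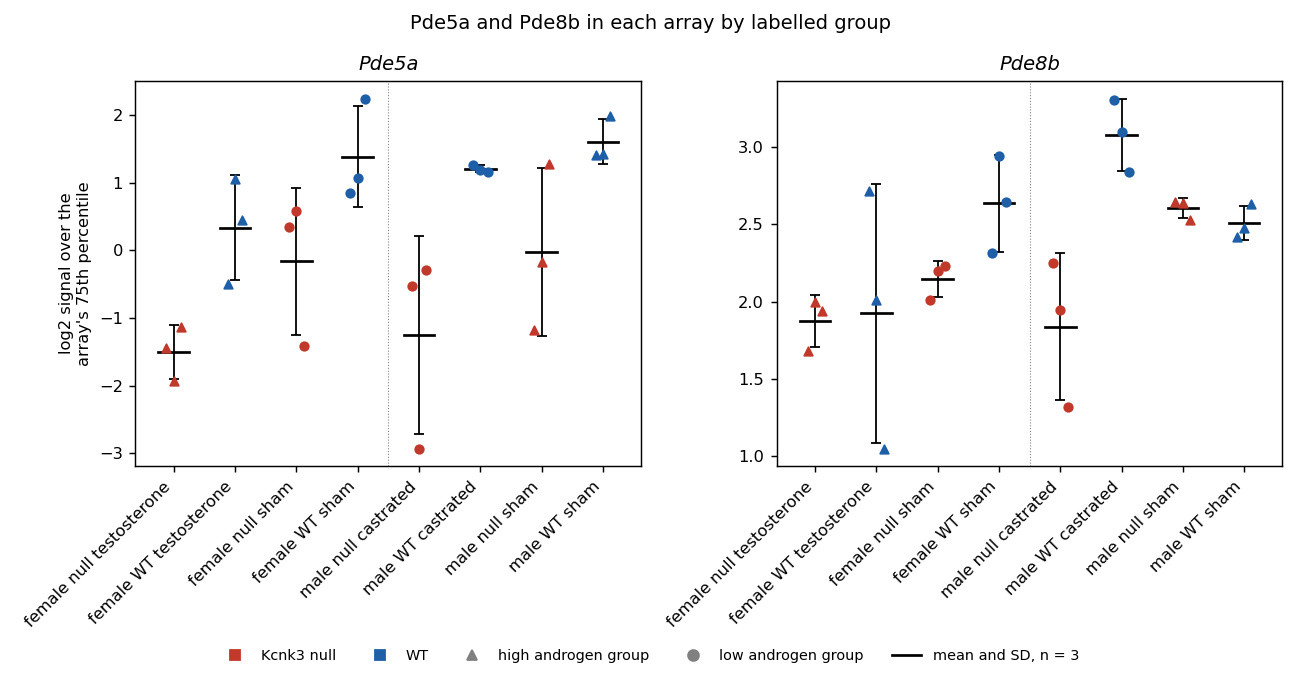
Log2 signal of Pde5a (left) and Pde8b (right) over the array's 75th percentile, by labelled group; points are arrays (red Kcnk3 null, blue WT, triangles high androgen, circles low androgen), bars the mean and SD of 3 arrays. Null arrays lie below WT arrays for Pde5a in all 4 pairs, and for Pde8b the widest gap between null and WT is in castrated males (3.57 against 8.44 as group means of signal).

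Pde5a is abundant in smooth muscle, and the levels of vascular markers are given beside it. None of 8 smooth muscle and pericyte markers was called in the genotype average, with summed signals of 32.2 to 47.3 over null arrays and 34.9 to 42.6 over WT arrays. Of 8 endothelial markers 2 fell, Emcn by 0.33 and Tek by 0.37 on the log2 scale, with summed signals of 33.4 to 53.9 in null and 39.3 to 58.4 in WT arrays. Of 4 zona glomerulosa markers 2 were lower in null, Vsnl1 by -1.22 (adjusted p = 0.0165) and Agtr1b by -0.98 (0.00447). Sex-linked genes also differed in this average: Ddx3y (-3.8), Eif2s3y (-3.77) and Uty (-1.44) were lower in null and Xist (2.28) higher. The part of any of these markers in the Pde5a difference was not tested.

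Pde7b, a second phosphodiesterase of the family of Pde7a, ran from 0.0299 to 0.0648 (median 0.0445) in null and from 0.0374 to 0.120 (median 0.0542) in WT arrays, a difference of -0.42 ± 0.11 with adjusted p = 0.0442. The arrays overlapped, and the call held in 9 of 38 alternatives. It was -0.12 after normexp with quantiles and -0.17 in the deposited table (adjusted p = 0.204 in both). With the slide as a block it was -0.34 (adjusted p = 0.085). In testosterone females null arrays, at 0.0421, 0.0423 and 0.0512, lay below WT arrays, at 0.0762, 0.0775 and 0.120 (adjusted p = 0.139).

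Pde8b, a high-affinity cyclic AMP phosphodiesterase linked to adrenocortical disease in humans, gave the smallest adjusted p of the single genotype pairs without being called. In castrated males it gave 2.49, 3.85 and 4.75 in null and 7.13, 8.54 and 9.86 in WT arrays, which did not overlap (-1.24 ± 0.30, adjusted p = 0.0654). In sham males null arrays, at 5.77, 6.23 and 6.24, and WT arrays, at 5.34, 5.57 and 6.20, overlapped. The castration by genotype difference was -1.34 ± 0.42, adjusted p = 0.566. The difference in castrated males was called under 11 alternatives. Among them were the slide as a block (-1.24, adjusted p = 0.0376) and the omission of female WT testosterone replicate 1 (0.016) or replicate 3 (0.00839). Another was the omission of the 9 arrays against their labels, where the difference was -1.76. The only null castrated array that stays there is the one at 2.49, the lowest of its group. In the same castrated males Vsnl1 (-3.24) and Agtr1b (-2.59) were lower in null and Cyp11b2 (2.97) higher, as were the mast cell markers Mcpt4 (2.17) and Cpa3 (1.52). The female transcript Xist was also higher in null (4.39). Summed zona glomerulosa signal was 24.1 to 34.1 in null and 26.0 to 28.7 in WT castrated arrays, and mast cell signal 2.32 to 3.39 in null and 1.38 to 1.91 in WT. The part of any of these markers in the Pde8b difference was not tested. In castrated males 9 members had groups that did not overlap, where 17% of all genes did.

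Among the other members with wide ranges of group means, none was called. Adcy8, a calcium-stimulated cyclase, ranged by 2.08 but was well above background on 4 arrays. Adcy10, the soluble cyclase that bicarbonate activates, ranged by 1.76, from 0.452 in WT sham males down to 0.133 in null sham females, where its arrays gave 0.0275, 0.203 and 0.425 and 1 of them was not above background. Pde4d, a cyclic AMP phosphodiesterase, ranged by 1.59 and was highest in WT testosterone females. In the genotype average Pde4d differed by -0.61 ± 0.17 with adjusted p = 0.0665. It passed the threshold when 1 of 4 arrays was left out (-0.69 to -0.66, adjusted p = 0.029 to 0.0484) and with the replicate block (0.0392). Prkar2b differed there by -0.37 ± 0.10 with adjusted p = 0.0592. It was called under several alternatives though not all, among them normexp with quantiles (-0.36, adjusted p = 0.0282), the deposited table (-0.37, 0.029) and trended robust variance (-0.37, 0.0378). Pde4d signal in WT testosterone females was 0.325, 0.437 and 0.582, against 0.110, 0.142 and 0.221 in null testosterone females, groups that did not overlap (null minus WT -1.53 ± 0.35, adjusted p = 0.145). Adcy3, a membrane adenylyl cyclase, was also highest there, at 0.405, 0.555 and 0.890, against 0.210, 0.228 and 0.267 in null testosterone females (-1.32 ± 0.30, adjusted p = 0.145). In testosterone females 13 members had groups that did not overlap, where 9.28% of all genes did. All 3 WT arrays of that pair are among those against their labels.

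The genes whose probes were brightest in each family, a choice that does not rank transcript levels, varied little between groups outside protein kinase G and the regulatory subunits. Pde4c, a cyclic AMP phosphodiesterase, had group means from 122 to 148. Adcy9 had group means from 17.1 to 23.7, and Prkacb, a catalytic subunit of protein kinase A, from 21.0 to 26.5. Gucy1a3, the alpha subunit of the nitric oxide receptor, had group means from 3.07 to 4.07, and Npr2, the receptor for C-type natriuretic peptide, from 4.62 to 5.34. Prkg2, the membrane-bound protein kinase G, had group means from 0.370 to 0.738, lowest in null sham females and highest in null sham males. Of these genes none was called with the main settings, and Npr2 had the narrowest range of all members, 0.21 on the log2 scale. The 40 members not called with the main settings had a median range of 0.64, and the range over all 50 had a median of 0.75. Among them are 5 that carry a Pde name and are not themselves catalytic cyclic nucleotide phosphodiesterases, Pde4dip, Pde12, Pde6d and the inhibitory gamma subunits Pde6g and Pde6h, with ranges from 0.25 to 0.53.

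Partner genes upstream and downstream of the members, such as G proteins, the ACTH receptor, kinase anchors and nitric oxide synthases, were counted beside them. Of 56 partner genes measured, the genotype average called 3 lower and none higher: Gnai1, an inhibitory G protein subunit, by -0.82 (adjusted p = 0.00154), Mrap, which carries the ACTH receptor to the cell surface, by -0.67 (0.00256), and Nos3, the endothelial nitric oxide synthase, by -0.45 (0.0429). Gnai1 and Mrap were also lower in null than in WT sham females (-1.15, adjusted p = 0.0331, and -0.99, adjusted p = 0.047). Popdc2, a membrane protein that binds cyclic AMP, was higher in the high androgen average (0.81, adjusted p = 0.0121) and lower in female than in male WT sham (-1.64, adjusted p = 0.016). Akap5, an anchor of protein kinase A, was lower in the same sex comparison (-0.92, adjusted p = 0.0495). No partner was called for castration or for testosterone in either genotype.

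Among the members with a promoter window, only Prkar1a, named above for androgen and sex, had an exact match to the cyclic AMP response element. Windows of 250 bases before a RefSeq start (GRCm38.p6) were found for 39 of the 50 members, 77 windows in all. Pde7a and Pde6a had no window and were not searched. The element TGACGTCA, searched on both strands, stood in 1.3% of the members' windows and in 1.55% of the 32851 windows of all genes. The steroid receptor half-site TGTTCT stood in 15.6% of the members' windows and in 16.1% of all. One of the windows of Prkar1a, chr11:109650699-109650948 on the plus strand, holds the element in capitals, its first base at -49 from the start. A match is a sequence description and not a measured binding site.
Prkar1a, window before 1 of its starts: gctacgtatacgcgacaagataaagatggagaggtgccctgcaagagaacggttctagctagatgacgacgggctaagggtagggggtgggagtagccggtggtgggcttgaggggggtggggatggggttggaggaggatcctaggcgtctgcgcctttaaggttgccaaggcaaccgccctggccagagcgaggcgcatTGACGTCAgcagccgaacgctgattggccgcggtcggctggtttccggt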

How the data were processed

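Adrenal RNA from 24 samples in 8 groups was hybridised to one-colour arrays, with 1 array for each sample. Per the file headers, the deposited scanner files hold spot intensities processed by Agilent Feature Extraction 10.7.3.1, background-subtracted within the array and not normalised between arrays. The deposited value table holds log2 values, unstated in scale; set against the scanner values it correlated at 0.998 to 1.00 with log2 mean signal per array, had nearly equal medians (6.33 to 6.34) and was used only as an alternative.

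The processed intensity was taken as log2 minus each array's 75th percentile (426.5 to 1099.1). Outlier spots (160 to 283 per array) were left out, no spot was saturated, and spots of a probe were averaged. Between 57.0% and 64.7% of spots lay well above background, which limits precision for dim genes. Of the probes well above background on at least 3 arrays (36832), the brightest per gene name in the files was used, giving 26372 genes. RNA integrity numbers were 3 to 9.

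Group means were fitted with limma 3.58.1 in R 4.3.3 (lmFit and eBayes, 16 residual degrees of freedom, prior 2.19; the data.table package was version 1.17.8), with Benjamini-Hochberg adjustment per comparison over all genes. The fit shares its spread over 8 groups; an exact permutation test of 3 against 3 cannot go below p = 0.1. Where no array of a group was above background, a lower bound is given. The script was tested on simulated data: for null minus WT in sham females, over 26190 genes, it recovered 42 of 100 genes changed by 1 and 64 of 100 changed by 2 on the log2 scale. Figures used Python 3.11.15 with matplotlib 3.10.9, numpy 2.4.6 and pandas 2.3.3.

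Members, partner and marker lists were chosen with earlier results of these data known. Called members, the 10 with the widest range of group means and the brightest of each family are named. Replicate numbers equal slide numbers on 22 of 24 arrays. Deviations from group means correlated at 0.231 on average for arrays with the same number (-0.399 to 0.693), against -0.111 for arrays with different numbers. The higher average for the same number is not taken into account by the main p-values. Numbers were not treated as pairs in the main fit. Some pairs fell below 0, which does not exclude a shared effect of number or slide. The replicate number and the slide were each fitted as a block as alternatives, and these changed some calls. Alternatives changed the background correction, normalisation, probe filter, blocks, covariates and arrays used. Slides were tested as batches: 2 slides held all 8 groups, the third 6 and the fourth 2, with 1 array of each.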

Additional observations from a re-analysis of the deposited data

How the results depend on the processing

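No called difference changed sign. Over 18 called combinations and their alternatives, 551 of 679 recalculations kept the call and 128 lost it. Many of these could not change the difference. In a comparison of 2 groups, leaving out an array of another group alters only the spread it is set against. The counts are thus no measure of how firm a difference is. The number of members called moved as follows (members called with the main settings in brackets). With array weights it was 3 for null minus WT in sham males (0), 4 in castrated males (0), 1 in sham females (0) and 1 in testosterone females (0), 7 and 4 for castration in WT (2) and null males (1), 6 for sex in null sham (0), 4 for the genotype average (2) and 4 for the castration interaction (0). Null minus WT in castrated males gave 1 with quantile normalisation, with normexp and quantiles, from the deposited table, with the replicate block, with the slide block, with trended robust variance, without slide 4 and without the 9 arrays. The slide block gave 3 for castration in null males, 2 for testosterone in WT females (1), 2 for sex in null sham and 1 for the genotype average. The RNA integrity covariate gave 2 for castration in null males and 1 for sex in null sham. Leaving out slide 4 gave 2, 0 and 1 for castration in null males, testosterone in WT females and sex in null sham. The replicate block gave 4 for the genotype average; the numbers were not shown to pair the samples. Normexp or the deposited table gave 2 for testosterone in WT females and 1 in null females (0). No filter on dim probes, or testing every kept probe, gave 0 for testosterone in WT females and 1 for the genotype average, and quantile normalisation gave 1 for that average. Probes above background on all 24 arrays gave 1 for castration in WT males. Without the albumin arrays it was 0 for testosterone in WT females, 3 for sex in WT sham (5) and 1 for the genotype average. Without the 9 arrays it was 0 for castration in null males, 3 for sex in WT sham, and, over the 3 pairs left, 0 for the genotype average and 1 for the androgen average (7); that average of 3 pairs was chosen after seeing the data. Testosterone in WT females, its pair with null females and the testosterone interaction have no value there. For sex in WT sham, with a single female WT sham array left, Pde7a and Pde1b kept their calls and Pde7b (1.09) was added. Pde6a, Npr3 and Prkar1a lost theirs.

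Leaving out single arrays gave 0 to 0 members for null minus WT in sham males, 0 to 1 in castrated males, 0 to 1 in sham females and 0 to 0 in testosterone females. It gave 2 to 3 and 0 to 2 for castration in WT and null males, 0 to 1 and 0 to 1 for testosterone in WT and null females, 2 to 6 and 0 to 0 for sex in WT and null sham, 1 to 4 for the genotype average, 4 to 7 for the androgen average, and 0 to 0 and 0 to 1 for the interactions. Over all alternatives the genes called in total ranged from 26 to 2063 for the genotype average (751 with the main settings) and from 344 to 1766 for the androgen average (937). They ranged from 89 to 1336 for castration in WT males (186), 14 to 1427 in null males (337), 3 to 162 for testosterone in WT females (37), 30 to 279 in null females (72), 315 to 1493 for sex in WT sham (688) and 22 to 2136 in null sham (268). For null minus WT they ranged from 4 to 591 in sham males (8), 21 to 954 in castrated males (204), 49 to 367 in sham females (175) and 4 to 128 in testosterone females (11), and for the interactions from 2 to 445 (25) and 20 to 89 (30). Leaving out 1 array could also add a call: 2 such arrays added Prkar2b to the genotype average (-0.42 and -0.41), 1 added Pde8b (-0.53, adjusted p = 0.0213), 4 added Adcy7 to the androgen average (0.39 to 0.40) and 3 added Pde7b to sex in WT sham (0.79 to 0.98).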
